A study of Mus musculus with 9 samples.

Results

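Expression of 10 genes of cardiac calcium handling was examined in mouse heart RNA, of 15779 genes in the deposited tables. They were chosen by symbol: Atp2a2, Pln, Casq1, Casq2, Hrc, Trdn, Jph2, Ryr2, Cacna1c and Slc8a1. All 10 had a row in each of the 3 deposited tables and all 10 passed the filter on low values in every comparison. The study made mice with a premature stop codon in Mybpc3, which encodes cardiac myosin-binding protein C of the sarcomere, and treated mutants with an adenine base editor. Polyadenylated RNA of adult C57BL/6J hearts was sequenced in 9 libraries. The 3 groups of 3 were wild-type mice given saline (here saline wild type), Mybpc3R946X/R946X mice given saline (saline mutant) and Mybpc3R946X/R946X mice labelled high-dose-exABE8e (treated mutant). Both mutant groups thus have the same genotype label, homozygous for the stop codon, and both untreated groups received saline. The label does not give the state of that codon in treated hearts. The series' design text says that the editors were carried by the adeno-associated virus AAV9 and expressed in cardiomyocytes. The labels give neither sex, age nor amount of virus, include no mutant given an inactive editor, and do not say whether the libraries of a group came from separate animals. The p-values below therefore measure the spread between these libraries, which may be partly technical, and a heart below stands for 1 library.

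In each heartbeat a small entry of calcium through the L-type channel opens ryanodine receptors in the sarcoplasmic reticulum, which release the store that drives contraction. The pump SERCA returns calcium to that store and the sodium-calcium exchanger moves the rest out of the cell. Inside the store, calsequestrin and the histidine-rich calcium-binding protein hold calcium, and triadin and junctophilin keep the release site together. Lower SERCA expression is a well-known feature of failing hearts.

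Positions are from GENCODE M21 on GRCm38. Atp2a2, the cardiac SERCA pump, lies on chromosome 5 from 122453513 to 122502225. Pln, whose product phospholamban inhibits that pump, lies on chromosome 10 from 53337667 to 53345987. Casq2, the cardiac calsequestrin, lies on chromosome 3 from 102086415 to 102146514, and Casq1, its skeletal muscle counterpart, on chromosome 1 from 172209894 to 172219868. Hrc, the histidine-rich calcium-binding protein, lies on chromosome 7 from 45335290 to 45338974. Trdn, triadin, lies on chromosome 10 from 33080554 to 33476709, and Jph2, the junctophilin of the heart, on chromosome 2 from 163336242 to 163397993. Ryr2, the cardiac ryanodine receptor, lies on chromosome 13 from 11553102 to 12106945 and has 105 exons in its longest transcript. Cacna1c, the pore of the L-type channel, lies on chromosome 6 from 118587240 to 119196418, and Slc8a1, the sodium-calcium exchanger, on chromosome 17 from 81373105 to 81738377.

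The promoters of the 3 genes that passed the test between saline mutant and saline wild type are shown, because the first pair are paralogs that rose together and the third fell. RefSeq promoters on GRCm38.p6 matched 8 of the 10 genes, Atp2a2 and Trdn being the other 2. Each sequence is the 250 bases before the start on the gene's own strand, 5′ to 3′, with motif matches in capitals. The Casq1 window is chr1:172219896-172220145 on the minus strand, the Casq2 window chr3:102086165-102086414 on the plus strand and the Hrc window chr7:45335019-45335268 on the plus strand.
Casq1: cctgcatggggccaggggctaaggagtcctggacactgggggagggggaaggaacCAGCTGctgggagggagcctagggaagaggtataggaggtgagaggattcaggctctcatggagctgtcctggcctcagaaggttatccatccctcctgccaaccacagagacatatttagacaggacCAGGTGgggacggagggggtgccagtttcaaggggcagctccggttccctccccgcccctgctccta
Casq2: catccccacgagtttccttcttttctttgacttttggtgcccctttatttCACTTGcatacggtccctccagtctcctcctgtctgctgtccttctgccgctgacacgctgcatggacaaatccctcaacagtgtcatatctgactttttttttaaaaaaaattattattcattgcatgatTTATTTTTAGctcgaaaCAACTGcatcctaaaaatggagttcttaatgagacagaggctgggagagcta
Hrc: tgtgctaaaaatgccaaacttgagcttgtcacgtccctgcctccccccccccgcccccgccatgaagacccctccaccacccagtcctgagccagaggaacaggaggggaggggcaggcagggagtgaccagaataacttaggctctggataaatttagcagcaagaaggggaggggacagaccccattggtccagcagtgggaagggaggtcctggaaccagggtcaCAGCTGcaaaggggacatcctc
The motifs searched on both strands were the CArG box and the MEF2 site (both by name), the E-box CANNTG, the M-CAT element CATTCC, the GATA site AGATAA, the thyroid hormone half-site AGGTCA and the TATA box TATAAA. Casq1 held 2 E-boxes, starting 195 and 67 bases before the start. Casq2 held 2 E-boxes, at 200 and 52 bases, and a MEF2 site at 69 bases. Hrc held 1 E-box, at 22 bases. No match overlapped another in these 3 windows. Of 32851 promoter windows of this length, 66.2% held an E-box and 2.92% a MEF2 site, so the E-boxes are common letters and the MEF2 match in Casq2 is the rarer one. The other shares were 1.47% for the CArG box, 12.6% for M-CAT, 9.99% for GATA, 14% for the thyroid hormone half-site and 12.4% for TATA. A match here is a description of the letters and not a site of binding.

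The deposited values are whole numbers that sum to between 999152 and 999382 in each library, so they are a normalized unit rounded by the authors, and sequencing depth is unknown. Mybpc3 itself was at 1510, 1795 and 2039 in saline wild type, 133, 142 and 186 in saline mutants, and at 1024, 1374 and 1332 in treated mutants, in the direction of the labels. Xist, an RNA of the inactive X chromosome, was above 0 in 1 library of each group, replicate 1 of saline wild type (119), replicate 3 of saline mutant (351) and replicate 1 of treated mutant (39), and 0 in the other 6. That treated library also held Y-linked Ddx3y (38, against 76 and 82 in the other 2). Differences without these 3 libraries are given beside many of the results. All 8 cardiomyocyte markers had values above 0 in every library, and their summed level was 50620 to 58890 in saline wild type, 52485 to 63775 in saline mutants, and at 55928 to 58374 in treated mutants. The sum hides markers that moved apart. Tnnt2 and Tnni3 were lower in saline mutants than in saline wild type without overlap, and Actc1 and Actn2 were higher without overlap. Myh6, Myl2, Myl3 and Ttn overlapped between these groups.

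Between saline mutant and saline wild type, the question is which transcripts differ with the Mybpc3 genotype. Casq1 rose 5.59-fold, Casq2 rose 1.5-fold and Hrc fell by 46.2%, so the transcripts of the calcium-binding proteins of the store did not move in 1 direction. These 3 of 10 genes had a limma adjusted p under 0.05, where 7.7% of all 13632 genes tested did (4.56% higher, 3.14% lower). Atp2a2 was at 0.655 of its wild-type level and just missed the threshold. Groups did not overlap for 6 of the 10, where they did not for 21.6% of all genes. The median log2 difference was -0.13 over the 10 genes and 0.07 over all genes tested. Folds and differences are on the log2(value + 1) scale, which understates changes of low values, and mean ± SD is over n = 3 libraries.

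Casq1 was at 10, 13 and 13 in saline wild type, 97, 64 and 58 in saline mutants, and at 68, 40 and 54 in treated mutants. Every mutant heart, treated or not, was above every wild-type heart, and the wild-type libraries were nearly alike. The means were 12 ± 1.73 and 73 ± 21 in the saline groups, a log2 difference of 2.48 (SE 0.199, 95% interval 2.03 to 2.94, limma adjusted p 0.00026). It was 2.51 without the 3 libraries with Xist. Casq1 is best known from skeletal muscle, so skeletal muscle markers were read in the same libraries. Of 12 listed, 7 had a row, and Myh4, Tnni2, Tnnt3 and Mybpc1 were at 0 or 1 in every library. The list summed to 48 to 50 in saline wild type, 25 to 33 in saline mutants, and at 40 to 47 in treated mutants. Most of that sum was Myl1 (12 to 31) and Tnnt1 (10 to 19), and Mylpf was at 0 to 2. The part of skeletal muscle in the Casq1 result was not tested.

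Casq2 was at 1045, 1077 and 1082 in saline wild type, 1633, 1630 and 1536 in saline mutants, and at 1540, 1329 and 1293 in treated mutants. The saline groups were far apart and narrow, and the treated hearts lay between them, with replicate 1 just inside the range of the saline mutants. The means were 1068 ± 20.1 and 1600 ± 55.2 in the saline groups, a log2 difference of 0.58 (SE 0.0956, 95% interval 0.36 to 0.80, limma adjusted p 0.00754). The call was lost with median-of-ratios scaling (adjusted p 0.0821, difference 0.51) and without replicate 2 of the saline mutants (adjusted p 0.0568, difference 0.57), and limma's adjusted p ranged from 0.0045 to 0.0821 over 19 alternatives. Without the 3 libraries with Xist the difference was 0.60. The longest run of identical bases between the transcripts of Casq1 and Casq2 is 25.

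Hrc was at 815, 939 and 1031 in saline wild type, 578, 532 and 399 in saline mutants, and at 707, 794 and 733 in treated mutants. The 3 groups were fully separate, with the saline mutants lowest and the treated hearts in the middle. The saline means were 928 ± 108 and 503 ± 93.0, a log2 difference of -0.89 (SE 0.156, 95% interval -1.25 to -0.54, limma adjusted p 0.00961). It was -0.83 without the 3 libraries with Xist. Of 19 alternatives, the call was lost in 1, limma's plain variance step with no rounding floor and the prior from all genes (adjusted p 0.0504, in a range from 0.00321 to 0.0504).

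Trdn and Jph2, the anchors of the release site, gave no call. Trdn was at 266, 247 and 232 in saline wild type and 245, 234 and 249 in saline mutants, overlapping ranges with a log2 difference of -0.03 (95% interval -0.25 to 0.18). Jph2 was at 477, 543 and 497 and at 530, 508 and 397, also overlapping, with a difference of -0.09 (95% interval -0.38 to 0.20). Without the 3 libraries with Xist the Trdn difference was 0.00032 and the Jph2 difference -0.0017. Without replicate 3 of the saline mutants, the low Jph2 value, the Jph2 difference was 0.04.

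**Figure D1:**
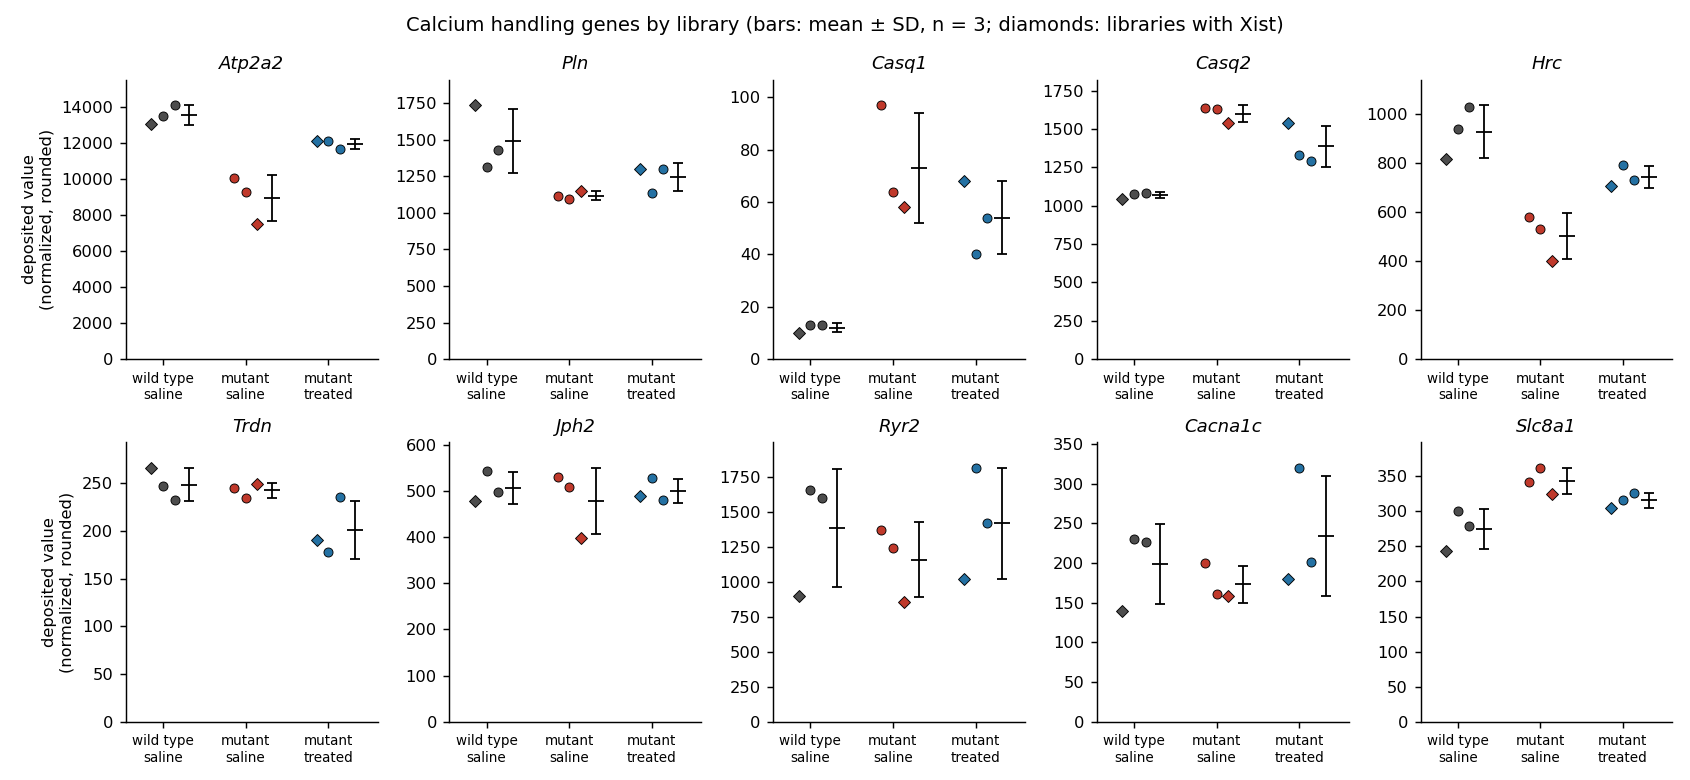
Deposited value of each gene (vertical axis, normalized and rounded, from 0) in the 9 libraries by group. Points are libraries, diamonds the libraries with Xist, and bars mean ± SD (n = 3). Casq1 lies between 10 and 13 in saline wild type and between 40 and 97 in all mutants, and the 3 groups of Hrc and of Atp2a2 do not overlap.

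Atp2a2 was at 13060, 13543 and 14131 in saline wild type, 10066, 9271 and 7538 in saline mutants, and at 12108, 12136 and 11677 in treated mutants. As for Hrc, the 3 groups were fully separate with the treated hearts in the middle. The saline means were 13578 ± 536 and 8958 ± 1293, a log2 difference of -0.61 (SE 0.157, 95% interval -0.97 to -0.25). Limma's adjusted p was 0.0513, above the threshold, and it was under 0.05 in 8 of 19 alternatives, with a range from 0.0204 to 0.243. One such alternative left out replicate 1 of the saline mutants, the highest of the 3 (adjusted p 0.0495, difference -0.70). It was not called with any other single replicate left out. Limma's adjusted p was 0.243 with median-of-ratios, 0.167 with upper-quartile and 0.0918 with non-mitochondrial scaling, and 0.19 with the replicate block. Without the 3 libraries with Xist the difference was -0.52 (limma adjusted p 0.0772).

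Pln was at 1738, 1312 and 1429 in saline wild type, 1116, 1092 and 1148 in saline mutants, and at 1300, 1137 and 1298 in treated mutants. The saline groups did not overlap, and the wild-type replicate with Xist was the highest library. The means were 1493 ± 220 and 1119 ± 28.1, a log2 difference of -0.41 (SE 0.124, limma adjusted p 0.0975), and no alternative called it. Without the 3 libraries with Xist the difference was -0.31. Exons of 2 genes on the opposite strand, Cep85l (18 to 28) and Gm47644 (10 to 19), overlap those of Pln. The strand setting of the counting is not given in the sources used here, so reads of Pln and of these genes cannot be told apart where they overlap, though their own values are small beside those of Pln.

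Ryr2 was at 903, 1660 and 1600 in saline wild type and 1375, 1244 and 857 in saline mutants. The ranges overlapped, with 2 of 3 wild-type libraries above every saline mutant, and the lowest library of each group was the one with Xist. The log2 difference was -0.24 (95% interval -0.82 to 0.35, limma adjusted p 0.696), so a change of Ryr2 of moderate size in either direction was within the error. Cacna1c was at 140, 230 and 226 and at 200, 161 and 159, with overlap and a difference of -0.17 (95% interval -0.61 to 0.27), or -0.34 without the 3 libraries with Xist. Slc8a1 went the other way from Atp2a2, at 244, 300 and 279 in saline wild type and 342, 362 and 325 in saline mutants without overlap. Its difference of 0.33 (SE 0.108, 95% interval 0.08 to 0.57) had a limma adjusted p of 0.124 and was called in none of the 19 alternatives.

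Markers of other cell types were summed in the same libraries. The 7 fibroblast markers, all with a row, summed to 1666 to 2403 in saline wild type, 2673 to 4288 in saline mutants, and at 1967 to 2708 in treated mutants. Of 7 atrial markers, 4 had a row and summed to 64 to 86, 378 to 1535 and 181 to 285. Nppa, which stressed ventricles also express, made up most of each sum. It was at 61, 42 and 45 in saline wild type and 356, 858 and 1489 in saline mutants. Myl4 and Dkk3 were also higher in saline mutants without overlap. Stard10 of the same list was lower without overlap, at 19, 16 and 15 in saline wild type and 6, 3 and 6 in saline mutants. Macrophage markers (6 of 6) summed to 230 to 320, 262 to 494 and 223 to 328, endothelial markers (6 of 6) to 1654 to 2002, 1403 to 1829 and 1369 to 1657, and smooth muscle markers (4 of 4) to 228 to 370, 138 to 152 and 193 to 218. Most of the smooth muscle sum was Acta2 (117 to 328). Myh11 (20 to 46) overlapped between the saline groups, Cnn1 was at 1 to 2 and Tagln at 0 to 1. The part of these cell types in the results on Atp2a2, Pln, Hrc and the calsequestrins was not tested. In whole heart tissue, fewer cells of a type and less RNA per cell cannot be told apart.

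Between treated and saline mutants, the question is which transcripts differ with treatment in hearts with 1 genotype label. None of the 10 genes was called by limma, where 0.0147% of 13636 genes were, which is 2 genes (0.00733% higher and 0.00733% lower), against 1130 genes at an unadjusted p under 0.05. Over the 19 alternatives, limma called from 2 to 32 of all genes and none of the 10. Atp2a2 and Hrc were higher in treated than in saline mutant hearts without overlap, 2 of the 10 genes, where 9.82% of all genes did not overlap. Hrc had means of 745 ± 44.7 and 503 ± 93.0, a log2 difference of 0.58 (SE 0.147, 95% interval 0.24 to 0.92), with an unadjusted p of 0.00377 and a limma adjusted p of 0.331. Atp2a2 had means of 11974 ± 257 and 8958 ± 1293, a difference of 0.43 (SE 0.158, 95% interval 0.07 to 0.79), with an unadjusted p of 0.0253 and a limma adjusted p of 0.519. The differences were 0.46 for Hrc and 0.30 for Atp2a2 without the 3 libraries with Xist, among them the lowest saline mutant for both genes.

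The 2 calsequestrins overlapped between the mutant groups. Casq1 means were 54 ± 14 and 73 ± 21 (difference -0.42, 95% interval -0.96 to 0.11, limma adjusted p 0.684). Casq2 means were 1387 ± 133 and 1600 ± 55.2 (difference -0.21, 95% interval -0.47 to 0.05, limma adjusted p 0.680). Both intervals reach from a clear fall to a slight rise. Without the 3 libraries with Xist, among them the treated replicate with the highest value of both genes, the differences were -0.75 and -0.32. Trdn was at 190, 178 and 235 in treated mutants, with 2 of 3 below every saline heart, a difference of -0.28 (unadjusted p 0.049, limma adjusted p 0.598). Differences for Pln (0.15), Ryr2 (0.28), Cacna1c (0.39), Slc8a1 (-0.12) and Jph2 (0.07) came with overlapping groups and limma adjusted p-values from 0.671 to 0.907. Cacna1c was at 180, 320 and 201 in treated hearts and Ryr2 at 1024, 1817 and 1420, and replicate 2 was the highest of all 9 libraries for both.

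Against saline wild type, Casq1 was the 1 gene of the 10 still called in treated mutants. It was 4.16-fold higher, a log2 difference of 2.06 (SE 0.202, 95% interval 1.59 to 2.53, limma adjusted p 0.0169), where 0.989% of 13554 genes were called (0.863% higher, 0.125% lower). Of all called genes 87.3% were higher, against 78.6% with median-of-ratios scaling, 73.9% with upper-quartile scaling and 50.6% with limma's plain variance step (no rounding floor, prior from all genes). It was between 94.3% and 100% with the replicate block, the Y-linked covariate or libraries left out. Those settings called from 1 to 133 genes, against 134 in the main fit, so several of the shares rest on few calls. Only 1 gene was called without wild-type replicate 1, 3 without wild-type replicate 2 and 9 without the libraries with Xist. Limma's adjusted p for Casq1 rose to 0.0550, 0.0633 and 0.0606 when wild-type replicate 1, 2 or 3 was left out and to 0.0516 without the 3 libraries with Xist (difference 1.76), in a range from 0.00252 to 0.0633 over 19 alternatives. The difference stayed at or above 1.76 in each of these. These groups did not overlap for 6 of the 10 genes, where they did not for 14.6% of all genes. The 6 were Casq1, Casq2, Slc8a1, Atp2a2, Pln and Hrc.

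Treated hearts were above wild type for Casq2 (difference 0.37, limma adjusted p 0.182) and Slc8a1 (0.21, adjusted p 0.479). They were below wild type for Hrc (-0.31, limma adjusted p 0.315), Pln (-0.25, adjusted p 0.482) and Atp2a2 (-0.18, adjusted p 0.521). None of these 5 was called. For each of the 6, treated hearts lay on the same side of wild type as the saline mutants did, but both comparisons use the same wild-type libraries, so this is no separate evidence. Trdn (-0.31, limma adjusted p 0.367), Cacna1c (0.22, adjusted p 0.798), Ryr2 (0.05) and Jph2 (-0.02) overlapped. The Ryr2 difference changed sign under several settings, among them upper-quartile scaling (-0.02) and leaving out wild-type replicate 1 (-0.24), and that of Cacna1c without wild-type replicate 1 (-0.01).

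**Figure D2:**
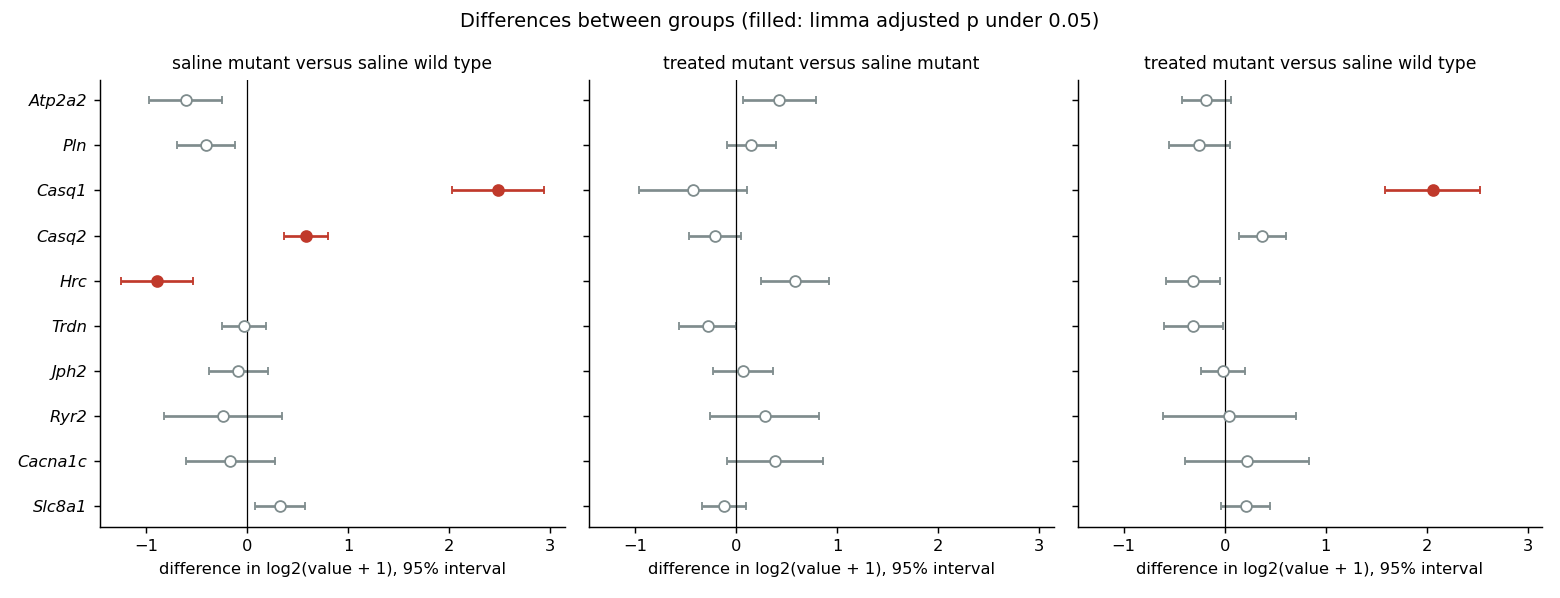
Difference in log2(value + 1) between groups (horizontal axis) for each gene in the 3 comparisons. Points are limma estimates with 95% intervals, filled where the adjusted p is under 0.05. Casq1, Casq2 and Hrc are filled on the left, none in the middle and Casq1 alone on the right, at 2.06.

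As a description, each treated heart was placed between the mean of saline mutants (0%) and the mean of saline wild type (100%). Atp2a2 lay at 68.2%, 68.8% and 58.8% and Hrc at 48.0%, 68.4% and 54.1%, so all 3 treated hearts were past the midpoint for Atp2a2 and 2 of 3 for Hrc. Casq2 lay at 11.2%, 50.9% and 57.7%, Casq1 at 8.20%, 54.1% and 31.1%, and Pln at 48.4%, 4.9% and 47.9%. Replicate 1 of the treated hearts was the nearest to the saline mutants for both calsequestrins and for Hrc, though not for Atp2a2 or Pln. No test is given, since the scale itself is set by the 2 saline groups.

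Phospholamban restrains SERCA, so the ratio of Pln to Atp2a2 was formed within each library, which removes any effect of library scaling. It was 13.3%, 9.69% and 10.1% in saline wild type, 11.1%, 11.8% and 15.2% in saline mutants, and at 10.7%, 9.37% and 11.1% in treated mutants. The 3 groups overlapped, and the highest value of each saline group was in its library with Xist. The means were 11.0% ± 1.98, 12.7% ± 2.22 and 10.4% ± 0.919 (SD, n = 3), and an exact permutation test over the 3 groups gave p = 0.321. On the log2 scale the ratio differed by 0.20 between saline mutant and saline wild type, by -0.28 between treated and saline mutants and by -0.07 between treated mutants and saline wild type. The 2-sided exact permutation p of these pairs was 0.4, 0.2 and 0.8 (0.6, 0.4 and 0.8 adjusted over 6 pair tests), where 3 against 3 cannot go below 0.1.

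The ratio of Casq1 to Casq2 was 0.957%, 1.21% and 1.20% in saline wild type, 5.94%, 3.93% and 3.78% in saline mutants, and at 4.42%, 3.01% and 4.18% in treated mutants. All mutant hearts were above all wild-type hearts, and the mutant groups overlapped. Means were 1.12% ± 0.143, 4.55% ± 1.21 and 3.87% ± 0.752 (SD, n = 3), and the exact permutation test over the 3 groups gave p = 0.0214, or 0.0429 adjusted over the 2 ratios. The ratio was 3.99-fold higher in saline mutants, and at 3.42-fold higher in treated mutants than in saline wild type (exact permutation p 0.1 for each, the smallest possible, and 0.3 adjusted over 6 pair tests). Between the mutant groups it differed by -0.22 on the log2 scale (exact permutation p 0.6). The lowest treated heart, at 3.01%, was still well above the highest wild-type heart, at 1.21%. With the 3 libraries with Xist left out, the exact permutation p over the groups was 0.133, where 6 libraries cannot go below 0.0667. The unit of the values is not named, so the size of a ratio of 2 genes is read only across libraries.

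A further pair of ratios was formed after the values had been seen and has no test. Hrc to Casq2, a pair of binding proteins of the store that moved apart, was 78.0%, 87.2% and 95.3% in saline wild type, 35.4%, 32.6% and 26.0% in saline mutants, and at 45.9%, 59.7% and 56.7% in treated mutants. Atp2a2 to Slc8a1, the 2 routes by which calcium leaves the cytosol, was 53.5, 45.1 and 50.6 in saline wild type, 29.4, 25.6 and 23.2 in saline mutants, and at 39.7, 38.4 and 35.8 in treated mutants. In both ratios the 3 groups were fully separate, with the treated hearts in the middle. Hrc and Atp2a2 by themselves were already separate in this order, so the ratios are no separate evidence.

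**Figure D3:**
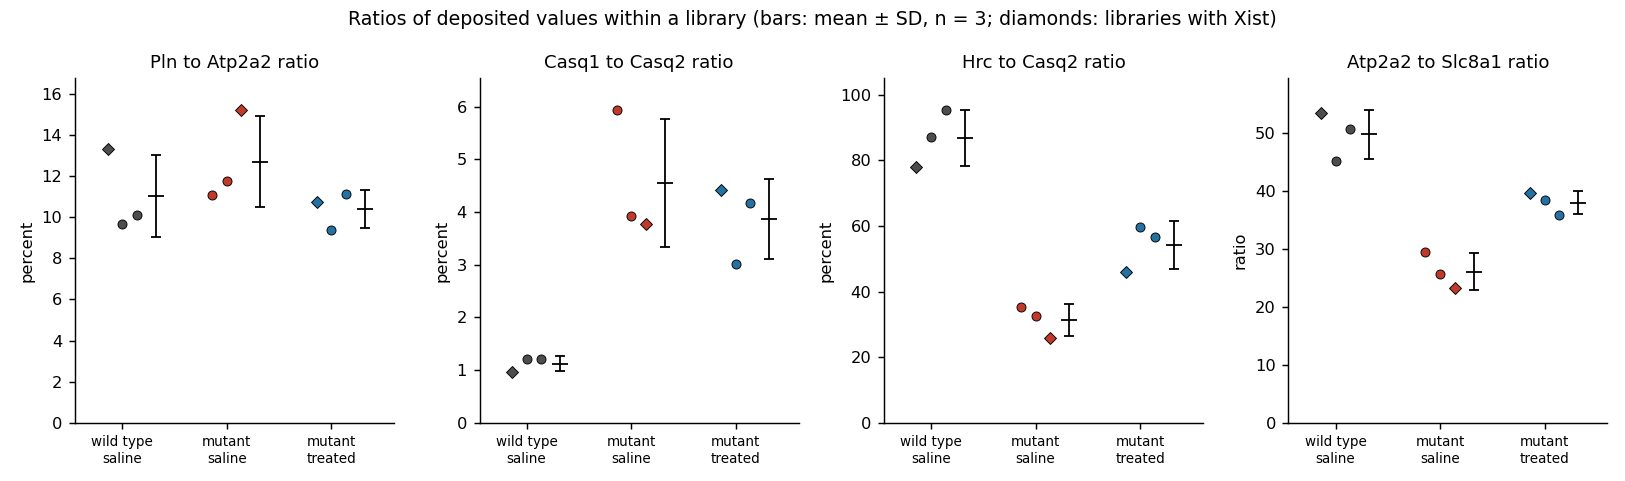
Ratio of 2 deposited values within each library (vertical axes, percent for the first 3 panels and a plain ratio for the fourth, from 0) by group. Points are libraries, diamonds those with Xist, and bars mean ± SD (n = 3). Casq1 to Casq2 is 0.957% to 1.21% in saline wild type and 3.01% to 5.94% in mutants, while Pln to Atp2a2 overlaps between the groups.

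The other genes of the pathway were read from 6 lists of 76 genes, of which 66 had a row. Between saline mutant and saline wild type 55 were tested, and limma called 3 higher and 2 lower, a share near the 7.7% of all genes, with a median difference of 0.05 against 0.07 over all genes. Among 10 of 15 junctional and luminal proteins tested, 1 was higher. This was Asph, whose locus encodes junctin, a partner of triadin and calsequestrin, at 215, 218 and 219 in saline wild type, 310, 313 and 294 in saline mutants, and at 271, 238 and 275 in treated mutants. The saline groups were narrow and far apart (log2 difference 0.49, limma adjusted p 0.0103), and the value is of the whole locus, which also encodes an enzyme. Among 3 of 9 pump relatives and regulators tested, 1 was higher, Ppp1r3a, a glycogen- and reticulum-bound phosphatase subunit, with means of 130 and 196 (0.59, limma adjusted p 0.0310).

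Of 17 L-type and T-type channel subunits listed, 13 were tested, and 1 was called higher and 2 lower, where 4.56% and 3.14% of all genes were. Cacnb2, the main accessory beta subunit of the cardiac L-type channel, was at 62, 71 and 67 in saline wild type, 45, 41 and 39 in saline mutants, and at 41, 59 and 54 in treated mutants. The saline groups did not overlap (log2 difference -0.67, limma adjusted p 0.00716). Cacnb1, the beta subunit known from skeletal muscle, rose from a mean of 6 to 10.3 (0.70, limma adjusted p 0.0309), and Cacna1s, the skeletal muscle pore, fell from 7.33 to 3 (-1.08, limma adjusted p 0.0211). Both are low values. None of 10 ryanodine and IP3 receptor genes, the 7 plasma membrane transporters reported here and 12 genes of store-operated entry and mitochondrial calcium was called. Upper-quartile scaling called 7 list genes, adding Orai2 (higher) and Rrad (lower). Median-of-ratios scaling also called 7, adding Orai2, Rrad and Mcu (lower) and losing Asph. Without the 3 libraries with Xist, or without wild-type replicate 1 alone, 2 genes of the lists were called, Asph and Cacnb2. Without mutant replicate 2 Cacnb2 alone was called. Asph, Cacna1s and Cacnb2 were called without mutant replicate 1 or 3, and Asph, Cacnb1 and Cacnb2 without wild-type replicate 2.

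None of these list genes was called with treatment, of 57 tested against saline mutants and 55 against saline wild type, where 0.0147% and 0.989% of all genes were, so few or no calls would be found at the shares of all genes. Paralogs of the 10 genes were near 0 or low in every library. Atp2a1 was at 0 to 2, Ryr3 at 1 to 3, Slc8a2 at 0 to 2, Atp2a3 at 14 to 26 and Jph1 at 21 to 28.

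**Figure D4:**
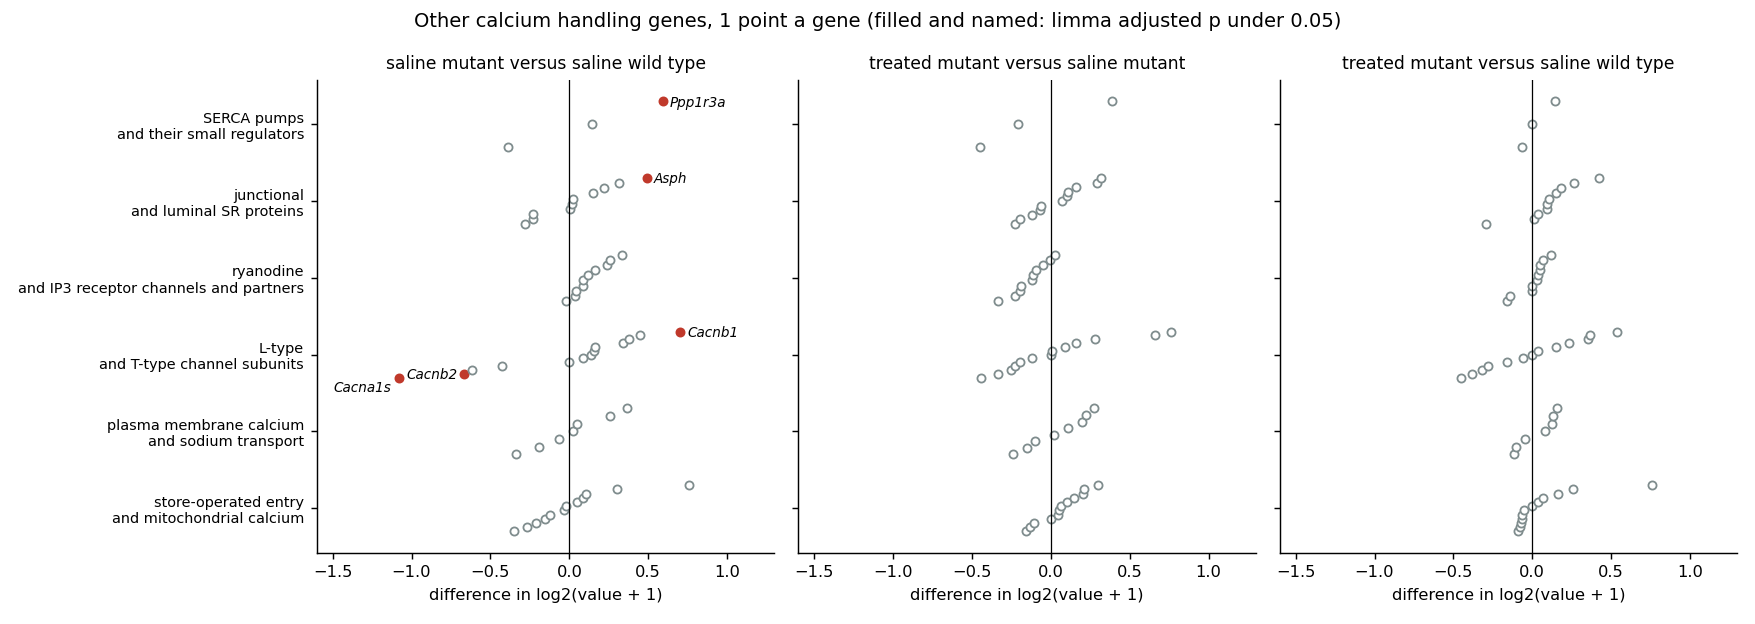
Difference in log2(value + 1) (horizontal axis) of each tested gene of the 6 lists (vertical axis) in the 3 comparisons. Each point is a gene, filled and named where limma's adjusted p is under 0.05. Filled points are 3 higher (Ppp1r3a, Asph, Cacnb1) and 2 lower (Cacna1s, Cacnb2) in the left panel, and none in the other 2.

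The share of genes that were lowest in the library with Xist of every group was larger for longer transcripts. In each group Ryr2, Cacna1c, Slc8a1 and Hrc were lowest in that library, 4 of the 10 genes, where 4.11% of 13530 genes were lowest in all 3. Ryr2 in that library was at 0.554, 0.654 and 0.633 of the mean of the other 2 in saline wild type, saline mutants and treated mutants. Cacna1c was at 0.614, 0.881 and 0.691, Slc8a1 at 0.843, 0.923 and 0.950 and Hrc at 0.827, 0.719 and 0.926. The longest transcripts of Ryr2, Cacna1c and Slc8a1 have 16814, 13162 and 18464 bases, and that of Hrc 2411. Over all genes the share lowest in all 3 was 0.738% for transcripts under 2000 bases, 3.52% from 2000 to under 5000, 8.66% from 5000 to under 10000 and 13.9% from 10000 bases. For Ryr2 the 3 lowest libraries were thus those with Xist. For Cacna1c they were the lowest of their groups, but treated replicate 1 (180) was above saline mutant replicate 2 (161). Treated replicate 2 was the highest library for both genes. Without the 3 libraries the Ryr2 differences were -0.32, 0.30 and -0.02 in the 3 comparisons, none called.

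**Figure D5:**
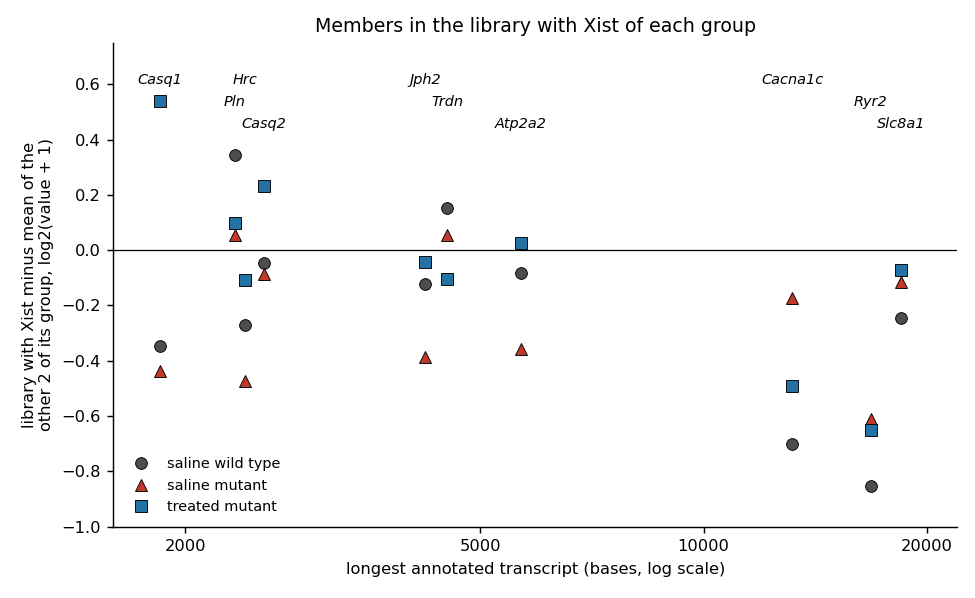
Difference in log2(value + 1) between the library with Xist and the mean of the other 2 of its group (vertical axis) against the longest annotated transcript in bases (horizontal log axis). Each gene has a point per group. All points of Ryr2, Cacna1c and Slc8a1 lie below 0, Ryr2 at -0.61 to -0.85. All points of the shorter Hrc and Jph2 also lie below 0, while those of Pln lie above 0. Atp2a2, Casq1, Casq2 and Trdn have points on both sides.

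For Atp2a2, Pln and Casq1, the genes of most similar profile were found among 4971 genes with a mean of at least 30, by the root mean square difference of standardized log2 values over the 9 libraries. Nearest to Atp2a2 were Suclg2 (0.150 SD), Uqcrc1 (0.165 SD) and Fndc5 (0.165 SD). Uqcrc1, a subunit of respiratory complex III, was at 1217, 1187 and 1250 in saline wild type, 1013, 966 and 820 in saline mutants, and at 1138, 1094 and 1060 in treated mutants. Nearest to Pln were Bsg (0.211 SD), Mcee (0.240 SD) and Gm13340 (0.264 SD). Nearest to Casq1 were Rnf115 (0.150 SD), Uck2 (0.166 SD) and Synpo2l (0.188 SD). Synpo2l, a protein of the heart's Z-disc, was at 129, 129 and 138 in saline wild type, 722, 654 and 699 in saline mutants, and at 670, 337 and 430 in treated mutants.

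The authors' deposited tables of selected genes held 3 of the 10 between saline mutant and wild type, Atp2a2, Casq1 and Hrc. Of all 15587 genes with a p-value there, 689 were selected. Hrc alone of the 10 was selected between treated and saline mutants (137 of all 15575 genes). Casq1 alone was selected between treated mutants and wild type (317 of all 15412 genes). In the authors' deposited table the log2 fold change of Hrc with treatment was 0.59 (SE 0.189). The column of that table named as adjusted equals the unadjusted normal p of the statistic. Adjusted here by Benjamini-Hochberg, the p-values of the authors' deposited table gave 0.718 for that Hrc result, and 0.00833 for Atp2a2, 0.0217 for Casq2 and 0.000171 for Hrc between saline mutant and wild type. By the authors' deposited values Atp2a2 thus passed between the saline groups where limma's adjusted p was 0.0513.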

How the data were processed

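Adult mouse heart RNA in 9 libraries (3 saline wild type, 3 saline mutant, 3 treated mutant) was analysed from the authors' deposited tables, 1 per pair of groups. The deposited library values are a score, whole numbers summing to nearly the same total in each library; the unit is not named in the file headers, so depth is unknown, no counting error could be given, and precision rests on 3 libraries per group. HISAT2, HTSeq, DESeq2 and the build mm10 are named, without role, order or version, in the submitters' processing notes. The deposited tables also hold a mean signal per gene, a log2 fold change with its standard error, a test statistic (score) and p-value columns of the authors' own comparisons, with the column names of DESeq2 per the file headers.

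A separate limma fit (version 3.58.1, R 4.3.3) was made for each pair of groups, on log2(value + 1) of all genes with a mean of at least 1. Residual variance was not allowed below the rounding variance, and prior degrees of freedom came from genes with a mean of at least 30. The steps were tested on simulated data. Calls were made where p, adjusted by Benjamini-Hochberg over all genes tested, was under 0.05. Ratios were tested by exact permutation of libraries. Alternatives were other pseudocounts, filters, scalings and variance steps, 1 fit of all groups, a replicate block, a Y-linked covariate, and leaving out libraries. Named are the 10 genes, called genes of the lists (at most 3 per direction), paralogs, and the 3 nearest profiles of Atp2a2, Pln and Casq1. These genes, lists and rules were chosen with earlier results of these data known. Sln, Arln, Erln, Jph3, Jph4, Ryr1, Cacng4, Slc8a3, Atp2b2 and Atp2b3 of the lists, and blood and adipose markers other than Alas2 (2 to 11) and Cidea (21 to 29), were not analysed here. Of the lists, 1 further gene is not reported here and was left out of the lists' counts.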

Additional observations from a re-analysis of the deposited data

How the results depend on the processing

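Of 570 results of single genes under alternatives, 539 kept their direction and their side of the threshold, 8 passed it, 7 lost it and 16 changed sign. Differences that changed sign are given on the log2 scale. Between saline mutant and wild type Trdn was at 0.00032 without the 3 libraries with Xist. Leaving out 1 replicate, Trdn ranged from -0.079 to 0.019 and Jph2 from -0.169 to 0.039 there. Between treated and saline mutants Jph2 was at -0.042 without the libraries with Xist and -0.032 with the Y-linked covariate, and ranged from -0.056 to 0.152 leaving out 1 replicate. Between treated mutants and wild type Ryr2 was at -0.020 with upper-quartile scaling, -0.00044 rescaled without mitochondrial transcripts, -0.021 without the libraries with Xist and -0.214 with the Y-linked covariate. Leaving out 1 replicate, it ranged from -0.237 to 0.263, Cacna1c from -0.027 to 0.386 and Jph2 from -0.058 to 0.035. The causes were not tested.

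Of the 10 genes, limma called 2 to 4 between the saline groups over the alternatives, 0 in each alternative between the mutant groups, and 0 or 1 between treated mutants and wild type (0 to 1 leaving out replicates, 0 without the libraries with Xist). List genes called between the saline groups were 3 with limma's plain variance step, 3 with a filter at a mean of 10 (which leaves out the low Cacnb1 and Cacna1s), 2 without the libraries with Xist and 1 to 4 leaving out replicates, against 5, and 7 with median-of-ratios, 7 with upper-quartile and 6 with non-mitochondrial scaling. All genes called ranged from 506 to 1281, 2 to 32 and 1 to 243 in the 3 comparisons. The Casq1 to Casq2 log2 ratio was 1.59 (saline mutant against wild type) and 1.40 (treated mutant against wild type) with 5 added to both genes, and its exact permutation p over the groups was 0.133 without the libraries with Xist, where it cannot go below 0.0667.

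With the replicate number as a block, 3, 0 and 1 of the 10 genes were called, the same counts as without it, 3 of the list genes (Ppp1r3a, Cacna1s and Cacnb2) against 5 between the saline groups, and 819, 30 and 35 of all genes against 1050, 2 and 134. The exact permutation p of the Casq1 to Casq2 ratio was 0.0556 within blocks. Deviations of libraries of the same number had correlations from -0.271 to 0.454. The highest was between replicate 1 of treated mutants and replicate 1 of saline wild type, both libraries with Xist. Besides that pair, only replicates 2 and 3 between treated and saline mutants correlated best with their own number. None did between saline mutant and saline wild type, where all correlations of the same number were negative. Whether libraries of the same number share more than that number was not tested.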
